A study of Mus musculus with 6 samples.

Results

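Cytochrome P450 enzymes of families 2, 3 and 4 were examined in the epidermis of newborn mice with and without a constitutively active aryl hydrocarbon receptor (AhR). The genes were taken by name: every mouse gene whose symbol begins with Cyp2, Cyp3 or Cyp4 followed by a letter, except Cyp4f39. Of the 18217 genes named on the array 59 met this rule, read by 80 probes, and 18 of them had more than 1 probe. The 3 AhRCA mice expressed a constitutively active form of AhR from the keratin 14 promoter, which is active in basal keratinocytes, and the other cells of the epidermis were sampled with them. The 3 wild-type (WT) mice were littermates, 1 for each AhRCA mouse. All 6 mice were of mixed strain and were sampled at postnatal day 0, and each epidermis was measured on a separate Agilent array with 1 dye. Keratinocyte markers were well above background on all 6 arrays for 5 of 5 genes on the array (Krt5, Krt14, Krt1, Krt10 and Lor).

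P450 enzymes are haem proteins that insert an oxygen atom into a substrate, with electrons supplied by P450 reductase and, for some reactions, cytochrome b5. Family 2 holds many enzymes of drug and toxicant metabolism, most of them best known from liver, together with epoxygenases and hydroxylases of arachidonic acid. Family 3 metabolizes drugs and steroids, and family 4 hydroxylates the end of fatty acid chains, including those of leukotrienes. AhR is the receptor for dioxins and polycyclic aromatic compounds, and its classical P450 targets belong to family 1. In skin, P450 enzymes are known both for handling applied chemicals and for making lipid mediators.

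The share of spots well above background ran from 56.2% to 61.3% over the arrays, with 0 saturated spots. Precision was limited by the number of arrays. Litter pairs 1 and 2 were hybridized on slide 1 and litter pair 3 on slide 2, each slide in a single scan. The brightest probe of Xist, the RNA that coats the inactive X chromosome, lay between 4.43 and 4.66 on slide 1 and between -7.14 and -4.20 on slide 2. The Y-linked Ddx3y stood between -7.29 and -6.84 on slide 1 and at 1.65 and 1.43 on slide 2. Slide, litter pair 3 and male sex therefore coincided and cannot be told apart, and each was balanced between the genotypes. These and all other levels given here are log2 intensities relative to the 75th percentile of the array, so that 0 is the brightness of a spot at that percentile, and levels of different genes are not comparable because each probe has its own efficiency.

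The first question was which of these enzymes newborn epidermis expressed. Detection means that a spot was well above its background, as marked by the scanner software, for any probe of the gene. Of the 59 genes, 23 were detected on all 6 arrays, 2 on 3 to 5 arrays, 11 on 1 or 2 arrays and 23 on no array. Detected on all 6 arrays were Cyp2b9, Cyp2b10, Cyp2b13 and Cyp2b19, Cyp2c70, Cyp2d9 and Cyp2d26, Cyp2f2, Cyp2g1, Cyp2j6, Cyp2j9 and Cyp2j13, Cyp2r1, Cyp2s1, Cyp2w1, Cyp3a11 and Cyp3a13, Cyp4a10, Cyp4b1, Cyp4f13, Cyp4f16 and Cyp4f18, and Cyp4v3. Cyp2b19 is a keratinocyte epoxygenase of arachidonic acid, Cyp2r1 a vitamin D 25-hydroxylase and Cyp4a10 a fatty acid hydroxylase induced by PPARalpha.

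**Figure D1:**
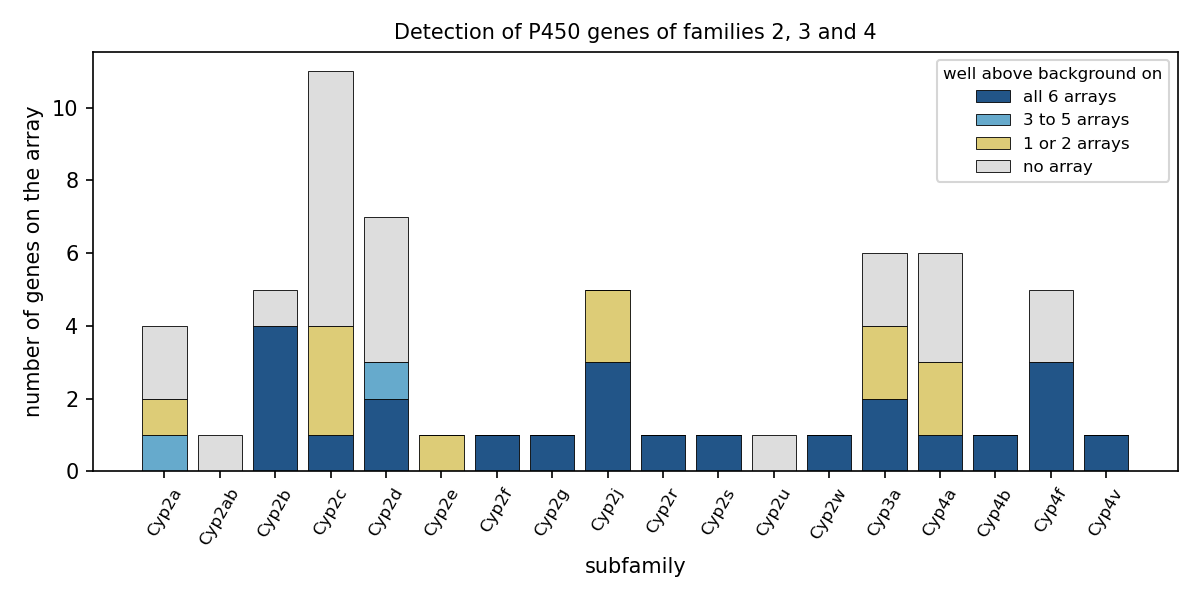
Number of genes of each P450 subfamily on the array (y axis) by subfamily (x axis), with colours for the number of arrays on which the gene was well above background. Of 11 Cyp2c genes 7 were seen on no array, whereas 4 of 5 Cyp2b genes and 3 of 5 Cyp2j genes were seen on all 6.

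Detection differed between the larger subfamilies. Of 11 Cyp2c genes 1 was detected on all 6 arrays, 3 on 1 or 2 arrays and 7 on none. Of 6 Cyp3a genes 2 were detected on all 6 arrays, 2 on 1 or 2 arrays and 2 on none, and of 6 Cyp4a genes 1 was detected on all 6, 2 on 1 or 2 and 3 on none. Cyp2e1, the ethanol-inducible enzyme, was detected on WT 2 only. Cyp2u1, a fatty acid hydroxylase, and Cyp2ab1 were detected on no array. Of the 6 hepatocyte markers on the array Apoa1, Apoa2, Ttr and Fgb were detected on no array, Alb on 1 WT array and Ahsg on 3 WT arrays and 1 AhRCA array. Ahsg, the 1 that could be tested, did not pass (-1.54 ± 0.56 on the log2 scale, adjusted p = 0.313, limma), and the summed intensity of the 6 markers on the array was 0.110 to 0.125 in WT and 0.0501 to 0.0796 in AhRCA, in units of the 75th percentile of the array. Detection on a single array was most frequent on WT 2 and AhRCA 3. WT 2 alone detected Cyp2c29, Cyp2e1, Cyp2j5 and Cyp3a44, AhRCA 3 alone Cyp2c37, Cyp2j11 and Cyp4a31, WT 1 alone Cyp2a5 and AhRCA 1 alone Cyp2c40. Over all probes, WT 2 and AhRCA 3 were also the arrays with the most probes seen on 1 array only, 548 in WT 2 and 679 in AhRCA 3 against 193 to 320 in the others. Cyp3a25 was detected on WT 1 and WT 2, and Cyp4a12a on both arrays of slide 2. No P450 gene of these families was detected on all 3 arrays of a genotype and on none of the other.

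The second question was which of them differed between AhRCA and WT. Testing needed a probe that 3 or more of the 6 arrays detected, which 25 of the 59 genes had; the other 34 were not tested. Cyp2j9 rose 5.41-fold in AhRCA epidermis and Cyp2g1 fell 10.04-fold, and the other 23 tested genes did not pass. In RNA of a whole tissue, fewer cells of a type and less RNA per cell cannot be told apart. These 2 of 25 compare with 279 of all 12824 genes tested, 2.18% (limma, Benjamini-Hochberg adjusted p under 0.05). By direction the share over all genes was 0.530% higher and 1.65% lower. The log2 fold change was positive for 12 of the 25 and negative for 13, with a median of -0.05 beside 0.0013 over all genes tested. At an unadjusted p under 0.05 there were 8 of 25, beside 12.2% of all genes. The groups did not overlap for 8 of the 25, beside 16.4% of all genes: 5 were higher in AhRCA (7.52% of all genes) and 3 lower (8.84%).

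**Figure D2:**
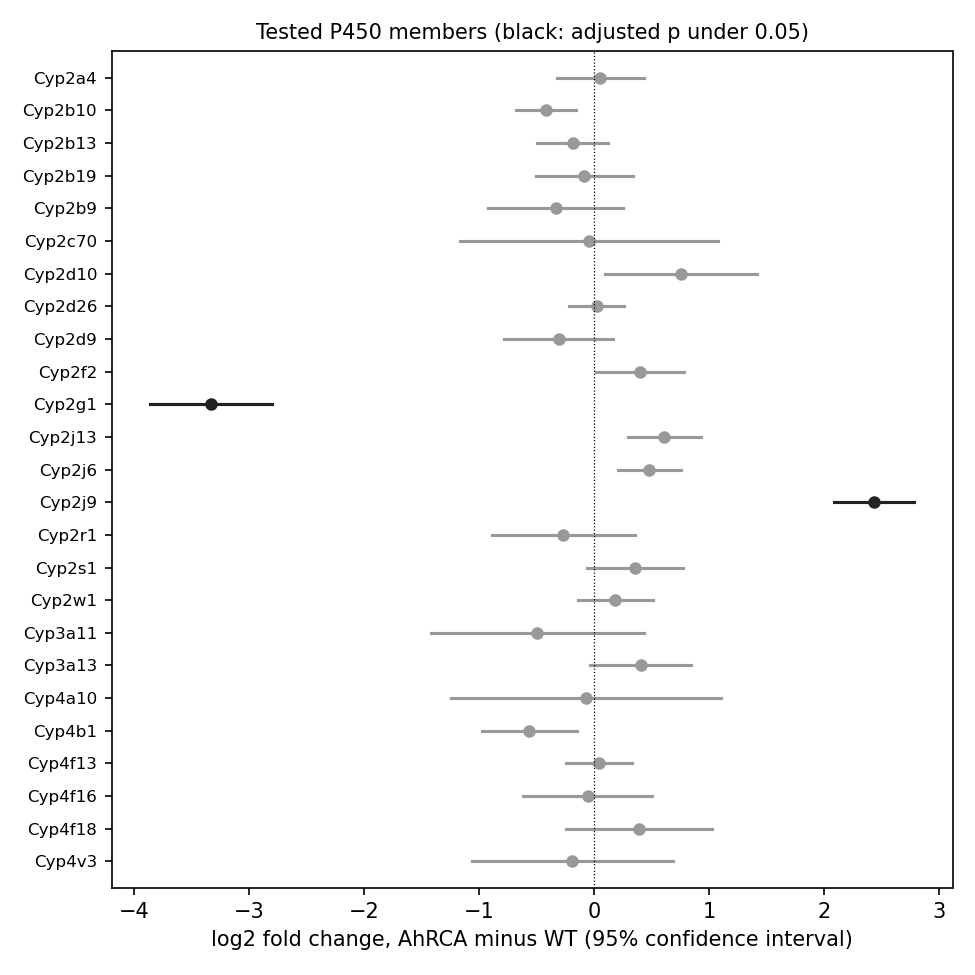
Log2 fold change of AhRCA minus WT (x axis, with the 95% confidence interval from limma) for the 25 tested P450 genes (y axis), with genes at an adjusted p under 0.05 in black. Cyp2j9 at 2.43 and Cyp2g1 at -3.33 lie apart from the other 23, which lie between -0.56 and 0.75.

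Cyp2j9 belongs to the arachidonic acid-metabolizing subfamily Cyp2j and is known from mouse brain as a hydroxylase of arachidonic acid. Its single probe (NM_028979) stood at -4.01, -3.97 and -3.67 in WT 1 to 3 and at -1.40, -1.63 and -1.31 in AhRCA 1 to 3. All 3 AhRCA arrays lay far above all 3 WT arrays, and the gene was detected on each of the 6. Before scaling, the intensities were 45.1, 43.0 and 56.2 in WT and 259, 202 and 304 in AhRCA. The log2 fold change was 2.43 ± 0.15 (SE, n = 3 per group, 95% interval 2.09 to 2.78, adjusted p = 0.00164, limma, Benjamini-Hochberg). It was 2.61, 2.33 and 2.36 in litter pairs 1, 2 and 3. With normexp background correction, whose constant offset on every spot weighs most where the intensity is low, it was 1.45 (adjusted p = 0.0012). Among called genes detected on all 6 arrays that rose, Cyp2j9 had the fifth largest of 53 fold changes.

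The other Cyp2j genes that could be tested lie in the same gene cluster. In the RefSeq table of GRCm38.p6, Cyp2j9 lies between Cyp2j6 and Cyp2j5, with Cyp2j8, Cyp2j11, Cyp2j7 and Cyp2j12 on the side of Cyp2j6. Cyp2j13 stood at -3.53, -3.86 and -3.53 in WT and at -3.11, -3.04 and -2.93 in AhRCA. The groups did not overlap, and the difference of 0.61 ± 0.13 on the log2 scale (SE, n = 3 per group) did not pass (adjusted p = 0.0830, limma). With the slide as a block it passed (adjusted p = 0.0472), beside 4.20% of all genes in that fit; with the litter pair as a block it did not (adjusted p = 0.0660, 3.88% of all genes), and without 1 array its adjusted p was between 0.113 and 0.283. With normexp background correction the value was 0.31. The other 2 probes of Cyp2j13 were detected on no array.

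Cyp2j6, the direct neighbour of Cyp2j9, stood at -1.39, -1.53 and -1.44 in WT and at -0.85, -0.94 and -1.12 in AhRCA. Here too the groups did not overlap, and the difference of 0.48 ± 0.12 on the log2 scale did not pass (adjusted p = 0.110, limma). A dimmer probe of Cyp2j6, detected on WT 1 and WT 2 only and therefore not tested, differed by -0.31, opposite in sign. Cyp2j5, the neighbour on the other side, was detected on WT 2 only and Cyp2j11 on AhRCA 3 only. The Cyp2j genes resemble each other in sequence, and whether a probe of one also reads another was not tested.

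**Figure D3:**
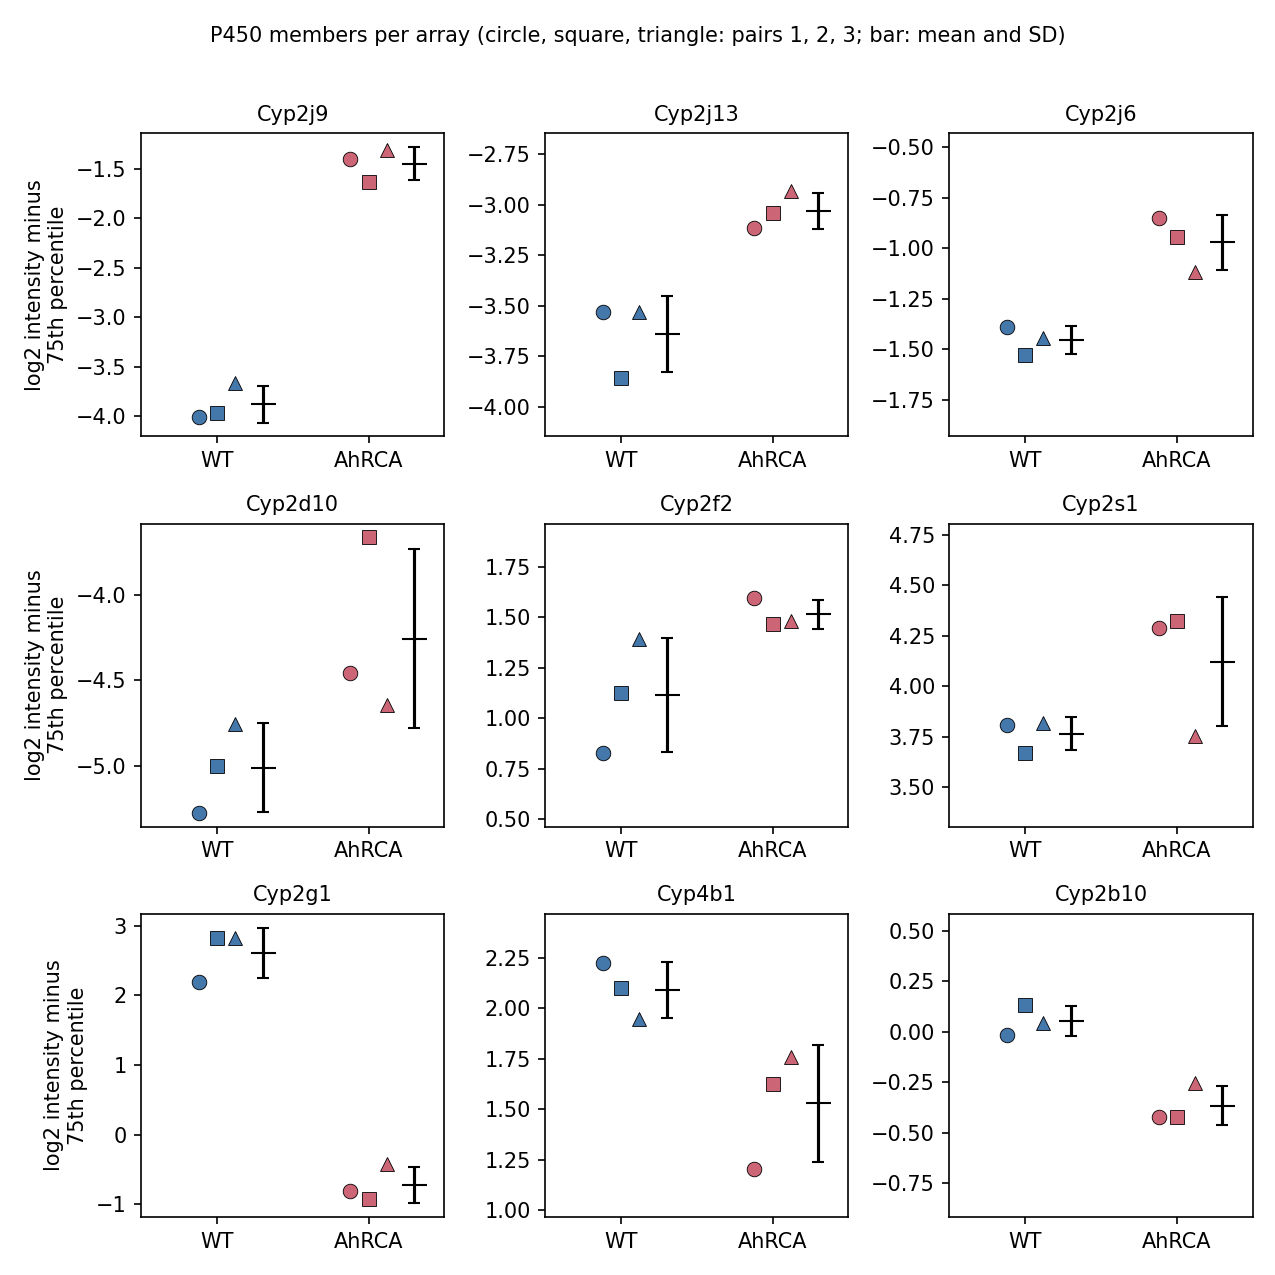
Log2 intensity relative to the 75th percentile (y axis) on each array of the 8 P450 genes whose groups did not overlap and of Cyp2s1, with points for litter pairs 1 to 3 in WT (blue) and AhRCA (red) and bars for the mean and SD. The y axes differ between panels; the means differ by 2.43 in Cyp2j9 and -3.33 in Cyp2g1 (AhRCA minus WT), against at most 0.75 in size in the other panels.

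AhR with its partner Arnt binds DNA at a core of GCGTG, and the bases before the start sites of the 3 tested Cyp2j genes and of Cyp2s1 are shown because Cyp2j9 rose, the other Cyp2j genes lie in its cluster, and Cyp2s1 is known to be inducible through AhR. Sequences are the 250 bases upstream of the RefSeq start in GRCm38.p6, 5′ to 3′ on the strand of the gene, with GCGTG on either strand in capitals. All 4 genes lie on the minus strand, Cyp2j9 at chr4:96591486-96591735, Cyp2j13 at chr4:96077541-96077790, Cyp2j6 at chr4:96553652-96553901 and Cyp2s1 at chr7:25816526-25816775.
Cyp2j9: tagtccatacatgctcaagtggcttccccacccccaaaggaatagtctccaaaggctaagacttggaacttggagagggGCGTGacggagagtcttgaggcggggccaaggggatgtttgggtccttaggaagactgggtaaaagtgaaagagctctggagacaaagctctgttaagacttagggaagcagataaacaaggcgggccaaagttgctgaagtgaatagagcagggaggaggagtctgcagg
Cyp2j13: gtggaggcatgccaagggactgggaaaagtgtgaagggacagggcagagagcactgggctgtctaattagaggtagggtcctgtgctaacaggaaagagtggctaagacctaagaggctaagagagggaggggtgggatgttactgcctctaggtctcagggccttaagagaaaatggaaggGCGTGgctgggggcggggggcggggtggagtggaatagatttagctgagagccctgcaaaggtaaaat
Cyp2j6: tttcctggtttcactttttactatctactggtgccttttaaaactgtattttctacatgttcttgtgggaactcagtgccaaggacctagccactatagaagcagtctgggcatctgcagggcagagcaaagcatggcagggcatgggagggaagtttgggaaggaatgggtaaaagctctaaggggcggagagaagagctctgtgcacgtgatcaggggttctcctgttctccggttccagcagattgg
Cyp2s1: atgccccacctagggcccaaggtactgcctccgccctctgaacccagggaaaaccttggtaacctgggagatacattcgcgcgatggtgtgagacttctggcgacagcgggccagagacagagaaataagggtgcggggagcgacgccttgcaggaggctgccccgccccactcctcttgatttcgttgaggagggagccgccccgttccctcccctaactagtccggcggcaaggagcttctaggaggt

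GCGTG began 171 bases before the start of Cyp2j9 and 68 before that of Cyp2j13 (61 from a second listed start), on the strand of the gene in both, and did not occur in the windows of Cyp2j6 and Cyp2s1. A promoter was listed for 23 of the 25 tested genes, in 24 windows, and not for Cyp2g1 and Cyp4a10. GCGTG occurred in 7 of these 24 windows (29.2%), in which the site of Cyp2j13 counts in both of its overlapping windows, and so in 6 of 23 genes (26.1%), beside 28.2% of all 32851 promoter windows of the same length. The longer form TNGCGTG, which contains GCGTG, occurred in 0 of the 24 and in 4.1% of all. The share in the tested P450 genes was thus close to that of promoters at large. The other 4 genes with a match were Cyp2b10, with matches starting 101 and 9 bases before its start, Cyp2w1, Cyp4f16 and Cyp4v3, of which none passed the test between genotypes. A match describes letters in the window and not a bound site.

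Cyp2g1 is known as a P450 of the olfactory mucosa that acts on steroids. Its brighter probe (NM_013809) stood at 2.19, 2.82 and 2.82 in WT 1 to 3 and at -0.81, -0.93 and -0.43 in AhRCA 1 to 3. The groups lay far apart, with scanner intensities of 3309, 4738 and 5045 in WT and 390.3, 330 and 561 in AhRCA, all 6 well above background. The log2 fold change was -3.33 ± 0.22 (SE, n = 3 per group, 95% interval -3.86 to -2.80, adjusted p = 0.00176, limma, Benjamini-Hochberg). It was -3.00, -3.74 and -3.24 in litter pairs 1, 2 and 3. Its other probe, dimmer and detected on 3 WT and 2 AhRCA arrays, gave -3.33 ± 0.29 when each probe was tested on its own (adjusted p = 0.0103, limma). Among called genes detected on all 6 arrays that fell, Cyp2g1 had the second largest of 150 fold changes.

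In some of the marker lists genes fell in AhRCA as Cyp2g1 did, beside 1.65% of all genes called lower (limma, adjusted p under 0.05). Of 8 tested sebaceous gland markers 6 fell (Scd1, Soat1, Pparg, Cidea, Awat2 and Elovl3), while Scd3 and Fasn did not pass. Log2 fold changes of the 8 ran from -3.57 (Elovl3) to -0.07 (Fasn). The summed intensity of the 9 on the array was 69.1 to 82.7 in WT and 60.9 to 63.0 in AhRCA in units of the 75th percentile. Mc5r was detected on no array. Of 10 hair follicle markers 2 fell (Lgr5 and Krt15), with sums of 340 to 533 in WT and 205 to 249 in AhRCA. Log2 fold changes of the 10 ran from -1.25 (Krt27) to 0.16 (Shh). Of 3 tested Merkel cell markers 2 fell (Krt20 and Krt8), with sums over 4 markers of 1.34 to 2.14 in WT and 0.388 to 0.609 in AhRCA and Atoh1 detected on no array. Of 4 Langerhans cell markers 1 fell (Cd207), with sums of 9.98 to 14.8 in WT and 6.32 to 8.87 in AhRCA. Cd207 was detected on 3 WT and 0 AhRCA arrays. It therefore met the filter for testing through WT alone, and the size of its fall is not known. Of the keratinocyte markers 0 of 5 passed, of the fibroblast markers 0 of 5, of the melanocyte markers 0 of 3 and of the adipocyte markers 0 of 2 tested, while 3 endothelial markers were detected on no array. The part of any of these cells in the fall of Cyp2g1 was not tested. Of 3 olfactory markers Omp and Bpifa1 were detected on no array and Cnga2 on 1 AhRCA array.

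Of the direct neighbours of Cyp2g1 1 could be tested, and it did not pass. In the order of the RefSeq table Cyp2g1 lies between Cyp2b19 and Cyp2a5, in a stretch that also holds Cyp2b23, Cyp2a22 and Cyp2a12. Cyp2b19 stood at 4.15, 4.65 and 4.46 in WT and at 4.55, 4.34 and 4.12 in AhRCA, with overlapping groups. Its log2 fold change was -0.08 ± 0.18 (SE, n = 3 per group, 95% interval -0.50 to 0.34, adjusted p = 0.999, limma). Cyp2a5 was detected on WT 1 only, and Cyp2b23, Cyp2a22 and Cyp2a12 on no array.

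Cyp2s1 is an extrahepatic P450 that is known to be inducible through AhR. It stood at 3.81, 3.67 and 3.82 in WT and at 4.29, 4.32 and 3.76 in AhRCA. AhRCA 1 and AhRCA 2 lay above all WT arrays and AhRCA 3 between WT 2 and WT 1, so that the groups overlapped. The log2 fold change was 0.36 ± 0.17 (SE, n = 3 per group, 95% interval -0.06 to 0.77) and did not pass (adjusted p = 0.532, limma). It was 0.57 on slide 1 and -0.06 on slide 2; on slide 1 alone the adjusted p was 0.0904, with 1.01% of all genes called there. The difference between slides, -0.63, did not pass after adjustment (interaction term, adjusted p = 0.491, limma), and 0.00780% of all genes passed that test.

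Cyp3a13, a drug- and steroid-metabolizing enzyme, had the same arrangement. It stood at 0.46, 0.70 and 1.10 in WT and at 1.22, 1.27 and 0.99 in AhRCA, with a log2 fold change of 0.66 on slide 1 and -0.10 on slide 2. Pooled over the slides it was 0.41 ± 0.18 (adjusted p = 0.470, limma), and the interaction with the slide did not pass (adjusted p = 0.491). Cyp3a11, the main hepatic enzyme of its subfamily, had -0.49 ± 0.39 with overlapping groups, and -0.15 without WT replicate 3.

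Of the other subfamilies of toxicant metabolism, Cyp2b genes all had negative values and none passed. Cyp2b10, known as a target of the receptor CAR in liver, stood at -0.018, 0.13 and 0.041 in WT and at -0.42, -0.42 and -0.25 in AhRCA. Its groups did not overlap, and the log2 fold change was -0.42 ± 0.11 (adjusted p = 0.138, limma). Cyp2b9 and Cyp2b13 had -0.33 ± 0.24 and -0.19 ± 0.13, with overlapping groups, and a dimmer probe of Cyp2b9 gave -0.30. Near-identical copies in this subfamily can share a probe, so their values may not be separate.

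Cyp2f2, which activates naphthalene in mouse lung, stood at 0.83, 1.12 and 1.39 in WT and at 1.60, 1.46 and 1.48 in AhRCA. The groups did not overlap, but WT 3 and AhRCA 3 on slide 2 differed by only 0.09, and the log2 fold change of 0.40 ± 0.16 did not pass (adjusted p = 0.381, limma). Cyp2d10 had the largest positive value after Cyp2j9, 0.75 ± 0.28 (adjusted p = 0.323, limma), but was detected on 1 WT array and 3 AhRCA arrays. It stood at -5.27, -5.00 and -4.76 in WT and at -4.46, -3.66 and -4.65 in AhRCA, and AhRCA 2 stood highest by far. Without AhRCA replicate 2 the log2 fold change was 0.46, and with normexp background correction 0.24. Cyp2d9 and Cyp2d26 had -0.31 ± 0.20 and 0.022 ± 0.099, and Cyp2a4, a steroid 15-alpha hydroxylase detected on 3 WT and 2 AhRCA arrays, had 0.056 ± 0.16. A dimmer probe of Cyp2d9, detected on 3 WT and 3 AhRCA arrays, gave -0.023 ± 0.21 when tested on its own. The second probe of Cyp2d10, detected on no array, differed by -0.38. Those of Cyp2a4, detected on 1 WT array and on no array, differed by -0.53 and -0.74. These dim probes of Cyp2d10 and Cyp2a4 were opposite in sign to the probe used and were not tested. Cyp2w1 had 0.18 ± 0.14, and Cyp2r1 had -0.27 ± 0.26.

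**Figure D4:**
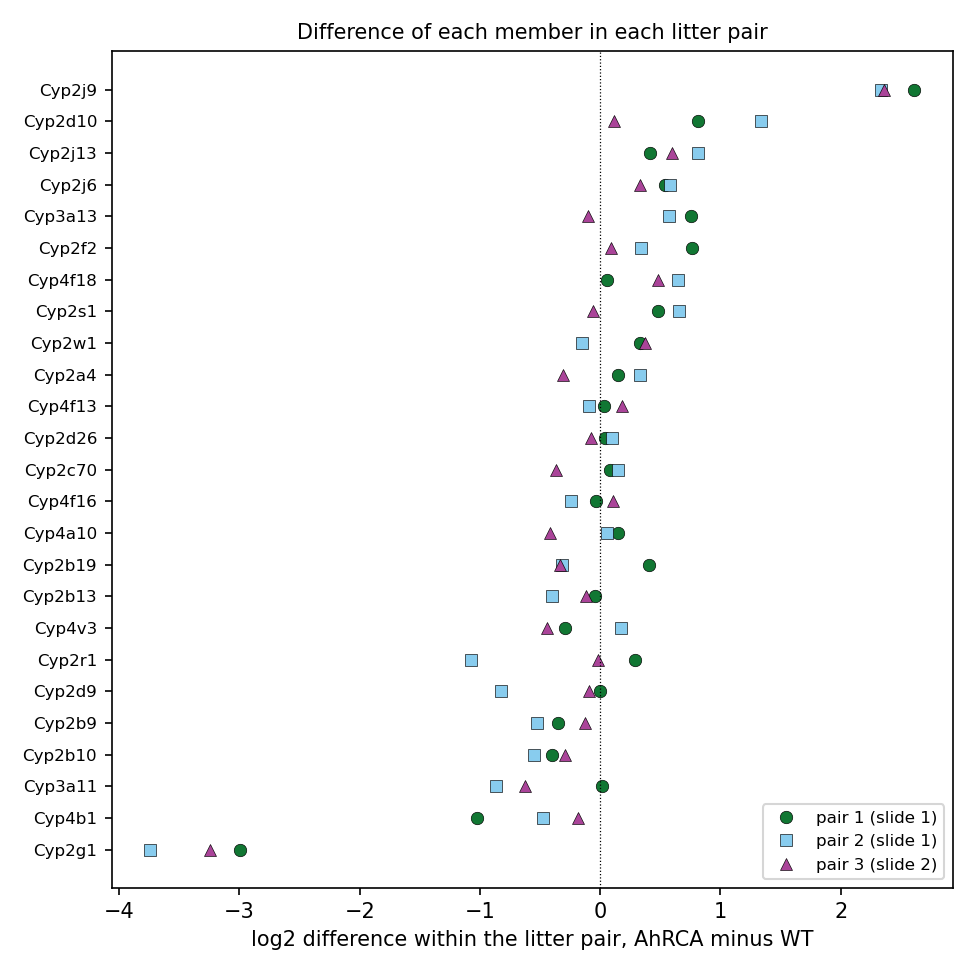
Difference of AhRCA minus WT on the log2 scale (x axis) within each litter pair for the 25 tested P450 genes (y axis, ordered by their fold change), with pairs 1 and 2 on slide 1 and pair 3 on slide 2. Cyp2j9 and Cyp2g1 keep their direction in all 3 pairs, and Cyp2s1 and Cyp3a13 lie above 0 in pairs 1 and 2 and just below 0 in pair 3.

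In family 4 none of the 6 tested genes passed. Cyp4b1, an extrahepatic enzyme that hydroxylates fatty acids and activates some toxicants, stood at 2.23, 2.10 and 1.95 in WT and at 1.20, 1.63 and 1.76 in AhRCA. All AhRCA arrays lay below all WT arrays, and the log2 fold change of -0.56 ± 0.17 did not pass (adjusted p = 0.210, limma). The difference was -1.02, -0.48 and -0.19 in litter pairs 1, 2 and 3. Cyp4f18, a leukotriene B4 hydroxylase of neutrophils, had 0.39 ± 0.26, Cyp4f13 had 0.041 ± 0.12 and Cyp4f16 had -0.05 ± 0.23. Cyp4v3, the mouse counterpart of a fatty acid hydroxylase mutated in a human eye disease, had -0.19 ± 0.36 and Cyp4a10 had -0.07 ± 0.49. For Cyp4a10 the 95% interval ran from -1.24 to 1.10, which includes a 2-fold change in either direction.

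Several of these genes differed between the slides. In the fit with the slide as a block, 5 of the 25 were higher on slide 2 and 1 lower, beside 6.46% of all genes higher and 14.5% in either direction (limma, adjusted p under 0.05). Cyp4a10 stood at -3.92 and -3.70 in WT and -3.77 and -3.64 in AhRCA on slide 1, and at -2.27 and -2.69 on slide 2. The difference was 1.28 ± 0.15 (SE, 4 arrays against 2, adjusted p = 0.0135, limma). Cyp2c70, known for making the muricholic bile acids of mice, stood between -3.10 and -2.73 on slide 1 and at -1.54 and -1.91 on slide 2 (1.21 ± 0.16, adjusted p = 0.0184, limma). Cyp3a11 was higher by 0.93 ± 0.20 (adjusted p = 0.0422, limma) and Cyp2b9 by 0.59 ± 0.10, and Cyp4f16 was lower (-0.57 ± 0.10). Cyp4f18 was higher by 0.61 ± 0.14, but close to the threshold (adjusted p = 0.0495, limma) and with overlapping slides. Cyp2j9 and Cyp2g1 did not pass in this comparison (0.26 ± 0.10 and 0.38 ± 0.19, adjusted p = 0.126 and 0.209). Slide, scan, litter and sex cannot be told apart here.

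Partner genes, with which P450 enzymes work or by which they are controlled, were compared in the same fit. Of 30 listed partners, all on the array, 25 were tested, 1 fell and 0 rose (limma, adjusted p under 0.05), beside 2.18% of all genes, and the median log2 fold change was -0.03. The groups did not overlap for 5 of the 25 (20.0%), beside 16.4% of all genes. That 1 gene was Pparg, a nuclear receptor for fatty acids that drives sebocyte and adipocyte differentiation. It stood at -0.83, -0.60 and -0.72 in WT and at -2.92, -2.61 and -2.17 in AhRCA, so that the groups lay apart. The log2 difference was -1.85 ± 0.20 (SE, n = 3 per group, adjusted p = 0.0105, limma). When WT replicate 2 was left out the value was -1.79 and the adjusted p 0.0504, and when AhRCA replicate 2 was left out -1.83 and 0.0610, so that the call was lost in both with little change in size. Over all 6 such fits the value lay between -2.05 and -1.67. Pparg is itself 1 of the sebaceous markers counted above.

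**Figure D5:**
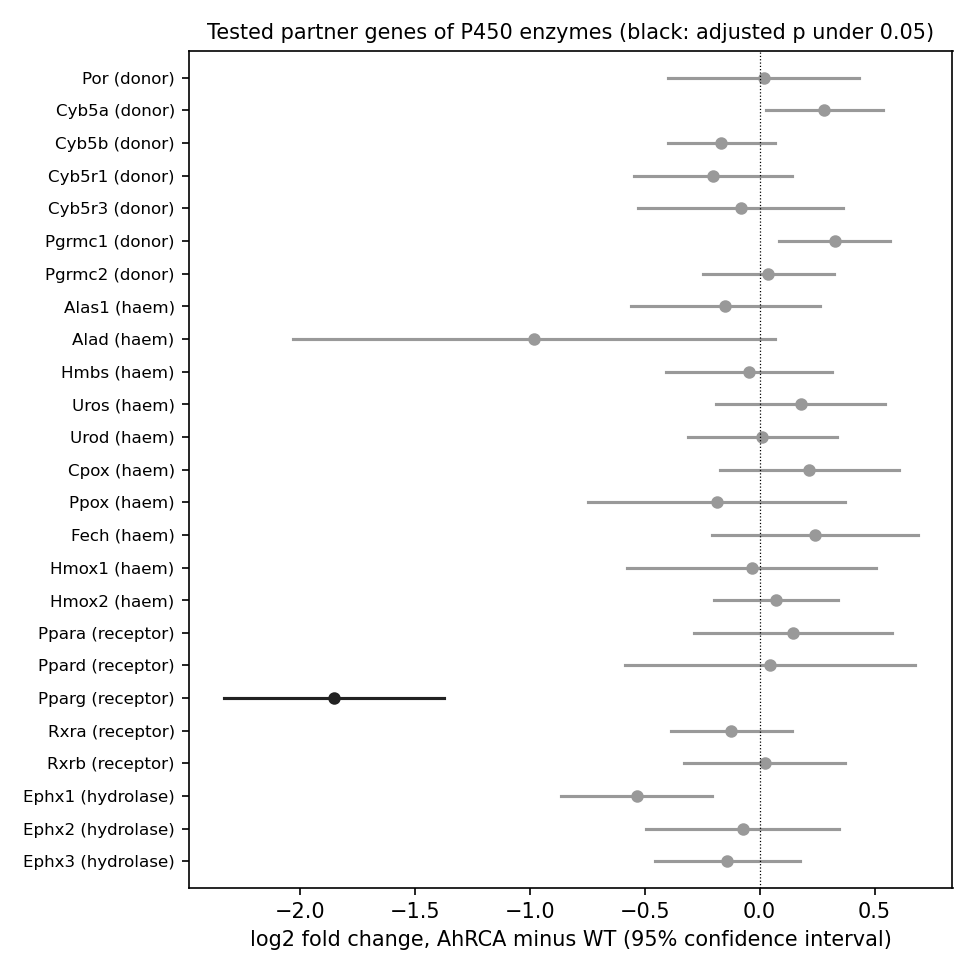
Log2 fold change of AhRCA minus WT (x axis, with the 95% confidence interval from limma) for the 25 tested partner genes of P450 enzymes (y axis), in black at an adjusted p under 0.05. Pparg at -1.85 is the gene in black; Hmox1 lacks WT 3, where its spot was marked as an outlier.

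Of the 7 electron donors and P450-binding proteins 0 passed. P450 reductase, Por, stood at 4.50, 4.69 and 5.12 in WT and at 4.86, 4.71 and 4.79 in AhRCA, with overlapping groups and a log2 difference of 0.017 ± 0.17 (adjusted p = 0.999, limma). Pgrmc1, a haem-binding partner of P450 enzymes, and Cyb5a, cytochrome b5, had 0.33 ± 0.10 and 0.28 ± 0.11 (adjusted p = 0.219 and 0.342, limma), with groups that did not overlap. The groups of Cyb5b did not overlap either, but it was lower in AhRCA (-0.17 ± 0.10, adjusted p = 0.671, limma). Of 10 genes of haem synthesis and breakdown 0 passed. Alad, of an early step of haem synthesis, had -0.98 ± 0.44 and Fech, which inserts the iron, 0.24 ± 0.19. The value of Alad rested largely on AhRCA 3, since without it the log2 fold change was -0.51. Among receptors that control P450 genes in liver, Nr1i2 and Nr1h4 were detected on no array, and Nr1i3 and Hnf4a on too few to be tested. Epoxide hydrolases turn the epoxides made by P450 enzymes into diols, and 0 of 3 tested passed. Ephx1, the microsomal enzyme, stood at 0.60, 0.46 and 0.17 in WT and at -0.12, -0.08 and -0.16 in AhRCA. The groups did not overlap, and the log2 difference of -0.53 ± 0.14 did not pass (adjusted p = 0.134, limma). Ephx3 had -0.14 ± 0.13.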

How the data were processed

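Per the labels, total epidermal RNA came from RNeasy Micro columns and carried Cy3 from a Quick Amp kit. Spot intensity was measured by the authors with Agilent Feature Extraction 10.7.3.1, per the file headers, with background subtracted on each array and no scaling between arrays. The authors also deposited log2 values for 41267 probes. Differences between their columns equalled those of the log2 intensities (slope 1.0), which gives their scale and direction, and the median of every probe is 0, a centring by probe. The medians of the WT columns were -0.0705, -0.0495 and 0.0827, and those of the AhRCA columns 0.0283, 0.0638 and -0.0710; the scaling of each array is not given in the sources used here.

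From each log2 processed intensity the 75th percentile of the array, control spots left out, was subtracted. Outlier spots were dropped and repeated spots averaged. RefSeq accessions without versions gave 1 GRCm38.p6 symbol for 26690 of 41174 probes and none for 14484. The brightest probe well above background on 3 or more arrays stood for a gene. Genotypes were compared over 12824 genes with limma 3.58.1 in R 4.3.3 (lmFit and eBayes, two-sided, Benjamini-Hochberg, threshold 0.05), tested on simulated data.

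The members and lists were chosen with earlier results of these data known. Named were Cyp2j9, Cyp2g1, Cyp2s1, called genes, members whose groups did not overlap, the largest change of each subfamily and the largest 2 of each partner class, and others for position, detection or slide. Alternatives were quantile and median scaling, normexp (on median spot signals, in place of the planned mean signals, which these files do not hold; offset 50), other probe filters, the mean of probes, the authors' values, the litter pair or slide as a block, slide 1 alone and leaving out each array. The test of each probe, the slide comparison and the interaction were added after seeing the data. Same-numbered mice are littermates per the labels' design text, and the pairing rests on that text. Their deviations from the group means correlated at 0.337, 0.372 and 0.55 in pairs 1, 2 and 3. Between WT 2 and AhRCA 1 the correlation was 0.194, and between WT 1 and AhRCA 2 it was 0.15. Pair 3 was alone on slide 2, so its value cannot separate litter from slide or sex.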

Additional observations from a re-analysis of the deposited data

How the results depend on the processing

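Cyp2j9 and Cyp2g1 kept their direction and their call in all 17 fits run, the main fit counted among them. The log2 fold change of Cyp2j9 lay between 1.45 and 2.54 and its adjusted p between 0.000433 and 0.0185; that of Cyp2g1 lay between -3.54 and -3.11, with 0.000489 to 0.0380 (limma). With the litter pair as a replicate block the count over all genes was 497, and with the slide as a block 539, against 279; the litter block changed no call of a P450 gene or partner. The count was 132 with no filter on dim probes, 130 within slide 1 and 62 to 195 when 1 array was left out (62 without WT replicate 2). Leaving out AhRCA replicate 1, 2 or 3 gave 104, 71 and 151, and leaving out WT replicate 3 gave 185. The count of P450 members stayed at 2 when 1 array was left out, and that of partners was 0 to 1. Signs turned only in genes that were not called. Within slide 1 these were Cyp2c70 (0.12), Cyp4a10 (0.10) and Ephx3 (0.0048). With 1 array left out the value lay between -0.076 and 0.17 for Cyp2a4, -0.37 and 0.44 for Cyp2c70, -0.41 and 0.44 for Cyp4a10 and -0.44 and 0.13 for Cyp4v3. Without a change of sign, the value of other genes that were not called moved by over 1.5 times between such fits. It ran from -0.83 to -0.15 for Cyp3a11, -0.47 to -0.052 for Cyp2r1 and 0.17 to 0.61 for Cyp4f18. For Cyp2d10 it ran from 0.46 to 0.95, for Cyp2f2 and for Cyp2s1 from 0.26 to 0.54, and for Cyp2w1 from 0.11 to 0.27. Cyp4b1 had -0.68 to -0.40. Of the partners, Alad had -1.32 to -0.51, Fech 0.095 to 0.43 and Ephx3 -0.22 to -0.056. Genes near background, such as Cyp2d10, Cyp2j13 and Cyp2j9, had smaller values with normexp, and 3 arrays per genotype limit what could be called.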
